A study of Homo sapiens with 95 samples.

Results

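PIK3CA encodes p110α, a catalytic subunit of phosphoinositide 3-kinase (PI3K). Growth factor receptors recruit PI3K to the plasma membrane, where it makes the lipid PIP3. PIP3 activates AKT, which in turn acts on mTOR, on glucose metabolism and on the FOXO transcription factors. In squamous lung tumours PIK3CA is often amplified or mutated, and in airway basal cells PI3K signalling is tied to growth and to squamous differentiation.

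The comparison set 9 samples that overexpress PIK3CA against 9 that carry HcRed, an empty vector with a red fluorescent reporter, which makes 18 of the 95 samples in the series. All 18 are AALE cells, immortalized human bronchial epithelial cells, profiled by sparse full length (SFL) sequencing, a multiplexed RNA-seq method based on depletion of ribosomal RNA. In each line 3 samples were exposed to cigarette smoke condensate (CSC, 24 μg/ml), 3 to benzo(a)pyrene (BaP, 173 μM), a polycyclic aromatic hydrocarbon, and 3 to the tobacco-specific nitrosamine NNK (490 μM). The 3 PIK3CA and 3 HcRed samples that received the solvent DMSO served for comparison. The PIK3CA allele and the promoter of its vector are not given in the sources used here. Each genotypic perturbation is a single line as far as the labels say, so an effect of PIK3CA and any other difference between the 2 lines cannot be told apart. The study calls the replicates biological, but the labels do not say whether they came from separate cultures, and if they did not the p-values measure only the spread between these samples.

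Counted reads per sample ranged from 432015 to 1653947 (median 1002140), and 3 samples had fewer than 600000, namely the third replicates of HcRed with BaP, HcRed with NNK and PIK3CA with NNK. At these depths 3 reads correspond to 1.81 to 6.94 CPM (counts per unit of library size, on the CPM scale of edgeR), and this precision covers counting error only. Levels below are CPM after TMM scaling, and fold changes are log2 of PIK3CA over HcRed from limma on voom-transformed counts, given with their standard error. Genes are called at a Benjamini-Hochberg adjusted p under 0.05 over the 14372 genes with a mean count above 1. Markers of airway basal cells were expressed in all samples, with a summed level of 7090 to 9620 CPM over 7 genes in HcRed and 4920 to 5880 CPM in PIK3CA. The 12 markers of secretory and ciliated cells summed to at most 14.8 CPM in HcRed and 11.1 CPM in PIK3CA, and SCGB1A1, SCGB3A1, SCGB3A2, BPIFA1 and BPIFB1 had no read. The 8 fibroblast markers summed to 19.3 to 38.1 CPM in HcRed and 11.7 to 26 CPM in PIK3CA. The 8 immune and endothelial markers summed to 6.89 to 32.5 CPM in HcRed and 13.2 to 40.6 CPM in PIK3CA, with PTPRC, CD3E and CDH5 among the markers at 0. In that last list only CD68 was called (0.81 ± 0.17), and the part of these marker differences in the results was not tested.

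PIK3CA itself was higher in every PIK3CA sample than in any HcRed sample. With CSC it measured 509, 482 and 526 CPM in the PIK3CA line and 63.3, 75.9 and 88.3 CPM in the HcRed line. With BaP the values were 476, 519 and 518 against 91.5, 99.2 and 95 CPM, and with NNK they were 509, 469 and 451 against 73.8, 63.4 and 80.1 CPM. The lines therefore did not overlap under any chemical, and the level was 6.13-fold higher over the 3 chemicals (log2 2.62 ± 0.07, adjusted p = 2.98e-43). With DMSO the difference was 2.65 ± 0.11 (adjusted p = 6.61e-35).

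INHBA, which encodes the βA subunit of the secreted ligand activin A, was the gene with the largest rise under the rule for named genes. It measured 41.1, 45.4 and 31.5 CPM in PIK3CA with CSC against 1.62, 3.45 and 0.992 CPM in HcRed. With BaP it measured 28.9, 22.4 and 22 CPM against 5.68, 4.63 and 4.22 CPM, and with NNK 19.5, 21 and 18.9 CPM against 1.42, 4.13 and 2.29 CPM. Every PIK3CA sample was above every HcRed sample, and the difference over the 3 chemicals was 2.98 ± 0.28 (adjusted p = 6.17e-14). The effect was 4 ± 0.49 with CSC, 2.21 ± 0.4 with BaP and 2.66 ± 0.56 with NNK, but the test of a difference between chemicals was not passed (adjusted p = 0.637).

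SPRR1B, a small proline-rich protein that is crosslinked into the cornified envelope of squamous cells, went the other way. It was counted 30, 36 and 20 times in HcRed with CSC, 24, 16 and 5 times with BaP and 7, 12 and 7 times with NNK. In the PIK3CA line no sample had more than 2 reads. Summed over the chemicals this was 157 reads against 5, a 33.5-fold difference after scaling for depth (exact 95% interval 14 to 104, counting error only), and the limma estimate was -4.32 ± 0.41 (adjusted p = 4.98e-14).

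**Figure D1:**
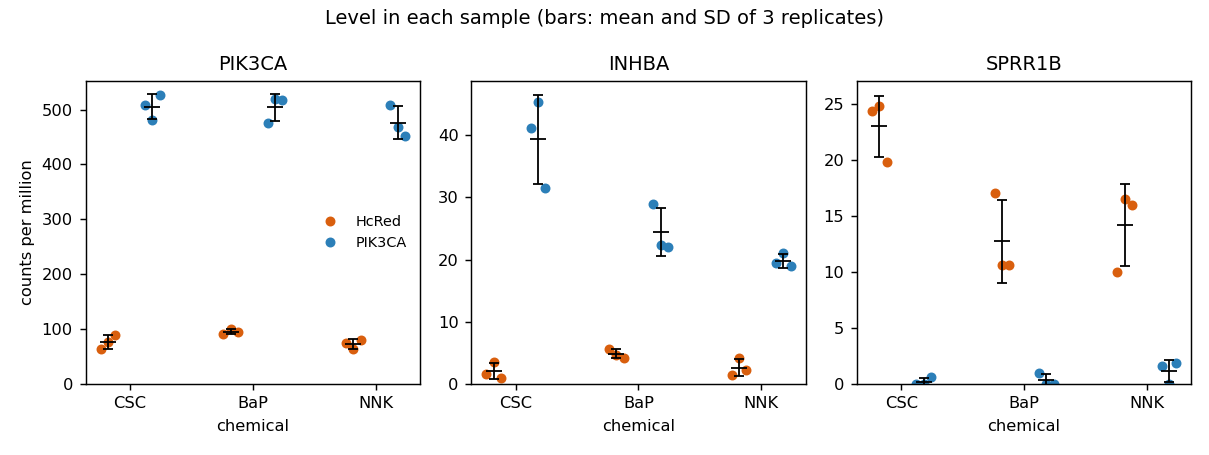
Level of PIK3CA, INHBA and SPRR1B in CPM (y axis) by chemical (x axis), with points for single samples and bars for the mean and SD of 3 replicates. PIK3CA lies at 451 to 526 CPM in the PIK3CA line and 63.3 to 99.2 CPM in the HcRed line, INHBA is higher and SPRR1B lower in every PIK3CA sample.

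Over the 3 chemicals 3155 genes differed between the lines (22% of those tested), 1573 of them higher in PIK3CA (10.9%) and 1582 lower (11%). Taken by chemical, 1286 genes were called with CSC (8.95%, with 4.67% higher and 4.28% lower), 942 with BaP (6.55%, with 3.62% higher and 2.94% lower) and 979 with NNK (6.81%, with 3.29% higher and 3.52% lower). The effects common to all chemicals comprised 368 genes called in the same direction in each (2.56%), with 193 higher (1.34%) and 175 lower (1.22%). Between pairs of chemicals, the genes higher with both CSC and BaP were 46.6% of the CSC list and 60.2% of the BaP list, those higher with both CSC and NNK 39.8% and 56.4%, and those higher with both BaP and NNK 43.1% and 47.4%. For the lower genes these shares were 39.2% and 57.1%, 47% and 57.1%, and 47.6% and 39.7%. In 6 genes 2 chemicals gave calls in opposite directions. Among the 193 genes the median log2 fold change was 0.613 with CSC, 0.627 with BaP and 0.679 with NNK. Among the 175 genes it was -0.864, -0.791 and -0.936. In 742 genes (5.16%) the PIK3CA samples did not overlap the HcRed samples within any chemical, 409 of them higher (2.85%) and 333 lower (2.32%).

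**Figure D2:**
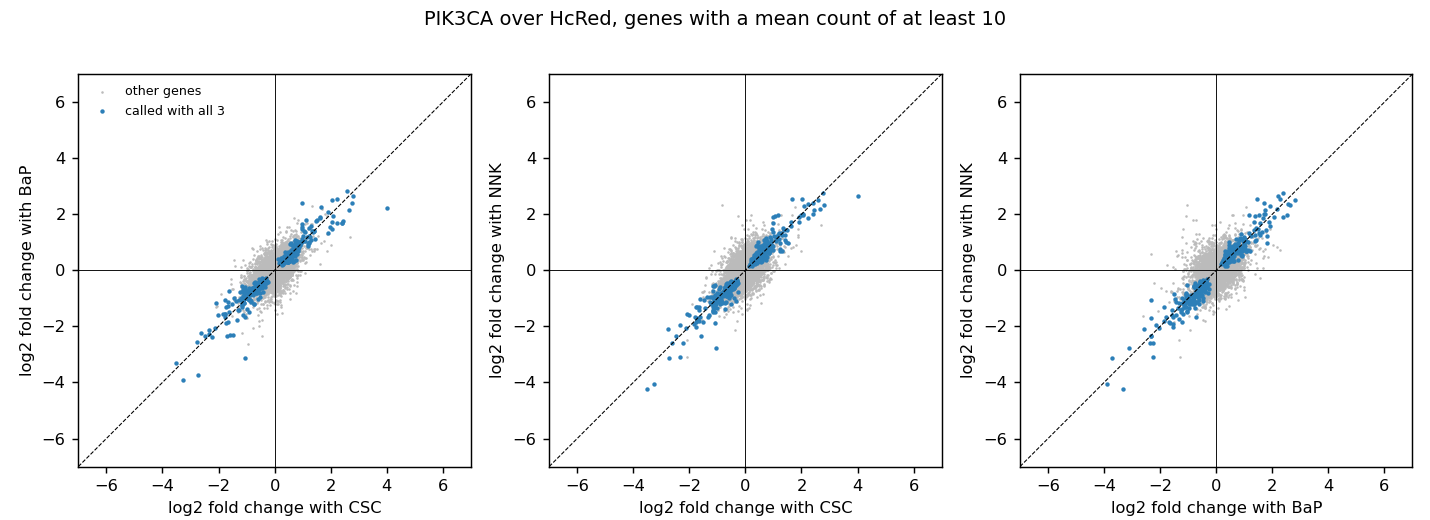
Log2 fold change of PIK3CA over HcRed with one chemical (x axis) against another (y axis), 1 point for each of 10208 genes that averaged 10 or more reads, blue where the gene was called in the same direction with all 3 chemicals. The Pearson correlation across these genes is 0.654 for CSC and BaP, 0.653 for CSC and NNK and 0.542 for BaP and NNK. Over all 14372 genes tested it is 0.465, 0.451 and 0.386 in the same order.

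The contrasts of different chemicals share no samples. Their correlations are across genes of the same 2 lines, and genes are not independent replicates. Of the 3155 genes, 3038 had the same sign of effect with each chemical, although 1397 were called with no single chemical.

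Among genes called in all 3 chemicals, without overlap within a chemical and with a mean count of at least 10, the 12 largest rises were INHBA, CYGB, TENM3, PIK3CA, KRT7, FBN2, SPARC, MAN1A1, CCAT1, PREX1, ENG and MME. CYGB encodes cytoglobin, an oxygen-binding globin, and measured 15.1 to 32.1 CPM in PIK3CA (median 23.6) against 1.38 to 5.95 CPM in HcRed (median 3.45), a difference of 2.65 ± 0.25. TENM3, a teneurin adhesion receptor, measured 54.4 to 85.4 CPM (median 72.2) against 7.93 to 20.6 CPM (median 10.5), a difference of 2.62 ± 0.16. Neither gene overlapped between the lines in any sample, though the rule that named them already asked for this within each chemical. Several of the others belong to the extracellular matrix or the cell surface. FBN2 (fibrillin 2, a microfibril protein) differed by 2.36 ± 0.19, SPARC (a matrix glycoprotein) by 2.18 ± 0.09, ENG (endoglin, a co-receptor for TGF-beta family ligands) by 1.97 ± 0.19 and MME (neprilysin, a membrane peptidase) by 1.94 ± 0.28. PREX1, an exchange factor for Rac that responds to PIP3, differed by 2.04 ± 0.27 and measured 12.4 to 26.5 CPM (median 20.1) against 0 to 6.94 CPM (median 4.58). MAN1A1, a Golgi mannosidase, differed by 2.12 ± 0.27 and the long noncoding RNA CCAT1 by 2.07 ± 0.19.

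The 12 largest falls were S100A8, ALDH3A1, SLC38A5, ESPN, C3orf14, GALNT5, S100A9, RNF128, SERPINB13, KIAA1324L, KRT16 and PNLIPRP3. S100A8 and S100A9 together form calprotectin, a calcium-binding complex that is high in stressed and squamous epithelium. S100A8 measured 43.8, 38.6 and 31.7 CPM in HcRed with CSC and 5.48, 6.31 and 1.21 CPM in PIK3CA. With BaP it measured 24.1, 24.5 and 19 CPM against 0.998, 2.48 and 2.59 CPM, and with NNK 25.6, 22 and 20.6 CPM against 0, 1.86 and 1.89 CPM. It differed by -3.64 ± 0.31 over the chemicals and had only 22 reads in the 9 PIK3CA samples. S100A9 measured 114 to 186 CPM in HcRed (median 142) and 20.1 to 38.8 CPM in PIK3CA (median 25.4), a difference of -2.4 ± 0.11 (adjusted p = 3.13e-29). The glutamine transporter SLC38A5 differed by -3.1 ± 0.32, ESPN (espin, an actin-bundling protein) by -2.51 ± 0.2, GALNT5 (an enzyme that starts O-glycosylation) by -2.48 ± 0.21, RNF128 (an E3 ubiquitin ligase) by -2.36 ± 0.24 and SERPINB13 (a protease inhibitor of squamous epithelium) by -2.13 ± 0.18. C3orf14 and KIAA1324L differed by -2.5 ± 0.29 and -2.08 ± 0.19. PNLIPRP3, of the pancreatic lipase family, differed by -1.06 ± 0.3 with CSC, -3.11 ± 0.57 with BaP and -2.75 ± 0.5 with NNK, and it overlapped between the lines when samples of different chemicals were compared (0.998 to 13.9 CPM against 12.7 to 30 CPM).

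Genes of the squamous cornified envelope were lower in PIK3CA as a group. Of 38 listed genes 24 passed the filter on low counts, and of these 22 fell, 2 did not pass the test and none rose, beside 11% of all genes lower. The median log2 fold change of the 24 was -1.17, against -0.0138 over all genes tested. In 6 of them the mean count was above 1 only through the HcRed line, and a filter passed in that way favours a difference. Among the other 18, 16 fell, with a median of -0.858, and of all genes above the filter in each line 11% fell. Called with every chemical were SPRR1B, S100A8, S100A9, SBSN, KLK7 and DSC2. KLK5, a kallikrein protease of the squamous layer, measured 4.97 to 15 CPM in PIK3CA (median 11.3) against 16.3 to 42.2 CPM in HcRed (median 23.8) and fell by 1.17 on the log2 scale (SE 0.2, adjusted p = 3.76e-06). TGM1, the transglutaminase that crosslinks the envelope, fell by 1.05 (SE 0.24, adjusted p = 0.000453), but its samples overlapped (1.3 to 11.4 CPM against 8.6 to 20.8 CPM). The 14 genes below the filter had mean counts of 0 to 0.833 and were not compared. RefSeq sequence was at hand for 17 of the 24 promoters. Within the 250 bases before the start site, 6 of the 17 (35.3%) hold TGANTCA on either strand, against 6.6% of all 27305 promoters in the table. This pattern includes TGAGTCA and its reverse complement TGACTCA, the core bound by AP-1 factors, which 5 of the 17 (29.4%) and 4.16% of all promoters hold. The motif was chosen with the values of these genes known. The match nearest to the start is shown for these 6 in capitals, with its surroundings on the strand of the gene (GRCh38.p14). In SPRR1B and FLG this match is TGAATCA, which is not the AP-1 core, and SPRR1B holds TGAGTCA farther from the start.
SPRR1A (chr1:152983956-152983996): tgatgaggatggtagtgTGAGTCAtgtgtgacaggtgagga
SPRR1B (chr1:153031075-153031115): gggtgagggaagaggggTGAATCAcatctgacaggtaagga
IVL (chr1:152908406-152908446): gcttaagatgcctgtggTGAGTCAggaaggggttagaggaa
FLG (chr1:152325295-152325335, minus strand): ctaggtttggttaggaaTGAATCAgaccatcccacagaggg
SCEL (chr13:77535640-77535680): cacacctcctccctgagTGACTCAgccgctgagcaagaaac
SBSN (chr19:35528359-35528399, minus strand): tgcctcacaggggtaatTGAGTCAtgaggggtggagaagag

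SPRR1A had 28 reads in the 9 HcRed samples and 0 in the 9 PIK3CA samples, and IVL (involucrin) had 23 and 4. Like SPRR1B, both are among the genes above the filter through HcRed alone. SBSN (suprabasin) had 111 and 14 reads and differed by -2.68 ± 0.35, FLG (filaggrin) by -0.94 ± 0.26 and SCEL (sciellin) by -0.33 ± 0.1. A match of these letters is a description of the sequence and not a bound site, and whether genes with a match differed from the rest of the list was not tested.

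Keratins divided into a group that fell and a group that rose. Keratins 5 and 14 are the pair of basal cells, and 6A, 16 and 17 are induced by stress. Keratins 7, 8 and 18 are among those of simple epithelium. KRT19, which fell, is often counted with them, so the rise did not extend to all such keratins. All 14 listed keratins passed the test, 10 lower and 4 higher, with a median of -0.835 over the list. In 1 of them the mean count was above 1 in one line only, and of the other 13, 10 were lower and 3 higher. KRT7 measured 948 to 1185 CPM in PIK3CA (median 1042) against 166 to 274 CPM in HcRed (median 198), a 5.17-fold difference (log2 2.37 ± 0.06, adjusted p = 6.89e-48). KRT8 rose by 1.32 ± 0.07, from 91.2 to 139 CPM in HcRed up to 238 to 306 CPM in PIK3CA, and KRT18 by 0.85 ± 0.07. For KRT7, KRT8 and KRT18 all 9 PIK3CA samples lay above all 9 HcRed samples. The rule that named KRT7 asked for this within each chemical, and KRT8 and KRT18 were picked after their values were seen. KRT19, in contrast, measured 184 to 291 CPM against 637 to 1150 CPM and differed by -1.79 ± 0.06 (adjusted p = 3.9e-39). KRT17 differed by -1.42 ± 0.04, KRT16 by -1.98 ± 0.19 and KRT5 by -0.49 ± 0.03. KRT6A, KRT6B, KRT6C, KRT16, KRT17 and KRT14 have near-identical copies among which counting could split reads.

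**Figure D3:**
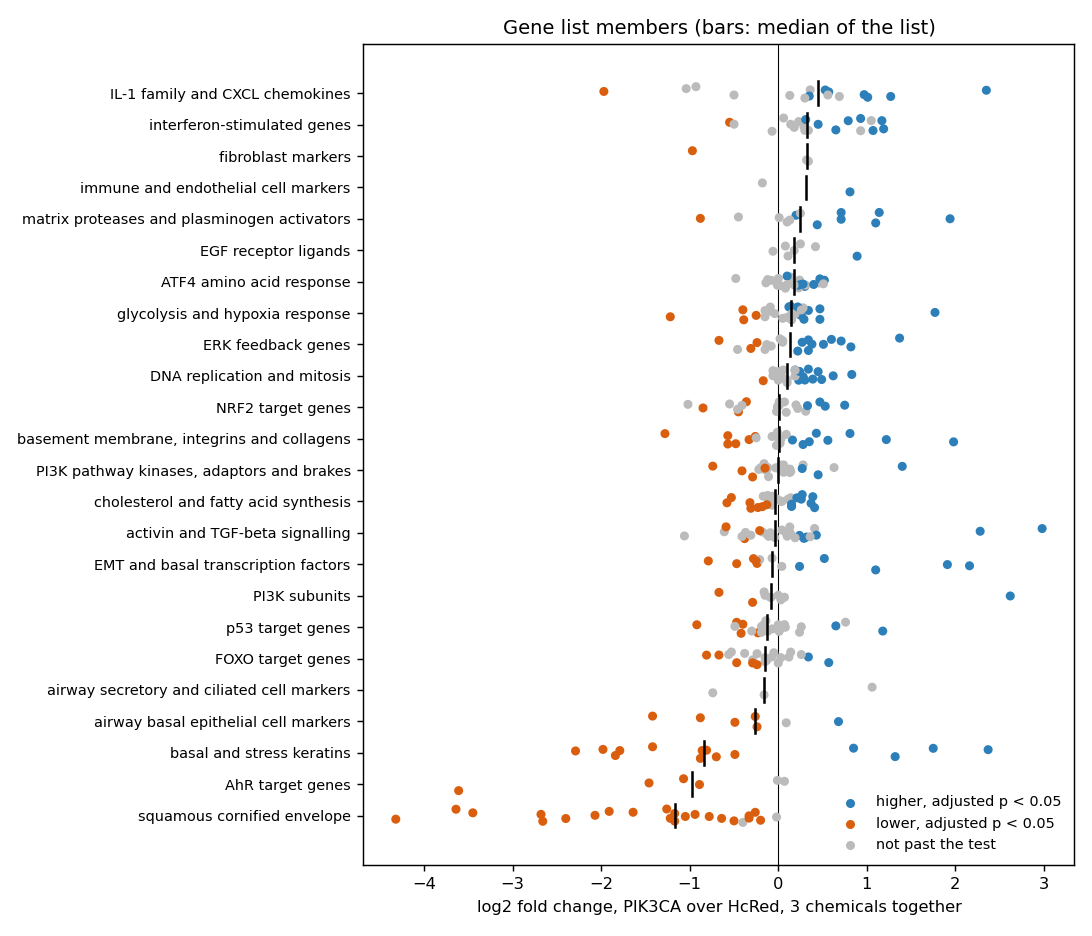
Log2 fold change of PIK3CA over HcRed over the 3 chemicals (x axis) for each tested member of the gene lists (rows, ordered by their median, the black bar). The cornified envelope list is lowest with 22 of 24 tested members lower, and the keratin list splits into 4 higher and 10 lower. In 6 of those 24 the mean count was above 1 only through the HcRed line. The other 18 had a median of -0.858, beside -0.978 for the AhR target genes.

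Genes of the PI3K pathway itself differed at about the rate of all genes, of which 22% were called. Of 10 PI3K subunits PIK3CA was the only one to rise, and PIK3C2B (a class II catalytic subunit) and PIK3R2 (a regulatory subunit) fell, by 0.67 (SE 0.13) and 0.29 (SE 0.08). Of 28 tested kinases, adaptors and brakes of the pathway 3 rose and 4 fell, a median of 0.000164, which is 25% called against 30% of the subunits. SGK1, a kinase close to AKT, differed by -0.74 ± 0.12. The lipid phosphatases INPP4B and INPPL1 differed by 0.45 ± 0.08 and -0.41 ± 0.09. Among 22 tested FOXO targets 5 fell and 2 rose, beside 11% and 10.9% of all genes. TXNIP, an inhibitor of glucose uptake, was called with every chemical (-0.81 ± 0.09) and measured 81.3, 65.6 and 43 CPM with CSC in PIK3CA against 116, 140 and 118 CPM in HcRed. BCL6, a transcriptional repressor, differed by -0.67 ± 0.21, and FBXO32, a ubiquitin ligase subunit, by 0.57 ± 0.13. SESN1, a stress-induced sestrin, differed by -0.47 ± 0.16, a call that was lost without the second PIK3CA replicate with CSC (adjusted p = 0.0793) and without each of 4 other samples.

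Genes of growth factor signalling were mostly higher where they differed. Of 20 tested ERK feedback genes 10 rose and 3 fell, beside 10.9% of all genes higher and 11% lower, the shares against which each count of a list is to be read. SPRY4, an inhibitor of receptor signalling, measured 71.3, 69.4 and 55.8 CPM with CSC in PIK3CA against 20.3, 22.1 and 34.7 CPM in HcRed and rose by 1.37 ± 0.16 (adjusted p = 1.38e-10). DUSP6, an ERK phosphatase, rose by 0.82 ± 0.12 and PHLDA1 by 0.71 ± 0.09, while SPRY2 fell by 0.67 (SE 0.22), which was not called without the second HcRed replicate with CSC (adjusted p = 0.0554). Of 7 tested EGF receptor ligands HBEGF was the one called, 0.89 ± 0.2. In the activin and TGF-beta list 6 of 29 tested genes rose and 3 fell (the same 6 and 3 among the 25 above the filter in both lines), and ID1 (0.43 ± 0.11) rose while SMAD3 (-0.38 ± 0.1) and LTBP1 (-0.59 ± 0.21) fell. LTBP1 was not called by DESeq2 (adjusted p = 0.0834) or when any of 9 of the 18 samples was left out. Of 16 tested genes of the IL-1 family and CXCL chemokines 7 rose and 1 fell, and none was called with all chemicals. In 3 of the 16 the mean count was above 1 in one line only, and among the other 13, 6 rose and 1 fell, beside 11.1% and 11% of all genes above the filter in each line. TNFAIP3, an inhibitor of NF-κB, rose by 0.97 ± 0.21, and the cytokines IL1A, IL1B and IL18 by 0.57 ± 0.1, 0.53 ± 0.2 and 0.35 ± 0.1. By edgeR's quasi-likelihood test 4 of the 16 rose, and IL1B was not called (adjusted p = 0.0884). In limma the call of IL1B was lost when any of 9 of the 18 samples was left out.

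Mesenchymal and matrix genes showed changes in both directions. VIM (vimentin) measured 133 to 183 CPM (median 145) against 25.6 to 69.6 CPM (median 36.6) and CDH2 (N-cadherin) 7.54 to 31.6 CPM (median 19.2) against 1.38 to 13.7 CPM (median 3.55). VIM did not overlap between the lines and rose by 1.91 ± 0.11, and CDH2 overlapped and rose by 2.16 ± 0.29. Both were called with each chemical. TWIST1 rose by 0.52 ± 0.18, a call lost when any of 5 samples was left out, and SNAI2, another transcription factor of epithelial-mesenchymal transition, fell by 0.47 (SE 0.09). In this list of 13 tested genes 5 rose and 5 fell, beside 10.9% and 11% of all genes. FN1 (fibronectin) rose by 1.22 ± 0.04, LAMB1 (the β1 chain of laminins) by 0.81 ± 0.05, and LAMA5 (the α5 chain) fell by 1.28 (SE 0.06) from 454 to 838 CPM in HcRed to 200 to 317 CPM in PIK3CA. Over 23 basement membrane, integrin and collagen genes 8 rose and 6 fell, beside the same shares. Among 13 tested proteases and their inhibitors 7 rose and 1 fell, beside 10.9% and 11% of all genes, with TIMP2 (1.1 ± 0.1), PLAT (tissue plasminogen activator, 1.14 ± 0.21) and MME higher and TIMP3 (-0.88 ± 0.09) lower.

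Of 28 genes of DNA replication and mitosis 11 rose and 1 fell, beside 10.9% of all genes higher and 11% lower, and the metabolic lists that follow are to be read against the same shares. RRM2, a subunit of ribonucleotide reductase, measured 367 to 532 CPM (median 461) against 189 to 288 CPM (median 248) and rose by 0.83 ± 0.06. TPX2, a spindle assembly factor, rose by 0.62 ± 0.04, AURKA by 0.45 ± 0.06 and CCNE1 (cyclin E1) by 0.49 ± 0.13. Of 26 tested glycolysis and hypoxia genes 10 rose and 4 fell, with LDHA and the lactate transporter SLC16A3 higher (0.47 ± 0.04 and 0.47 ± 0.06) and the glucose transporter SLC2A1 and the regulatory enzyme PFKFB4 lower (-0.4 ± 0.07 and -1.22 ± 0.15). Of 25 tested genes of the ATF4 amino acid response 8 rose and none fell, led by CEBPB (0.52 ± 0.09), the cystine transporter SLC7A11 (0.47 ± 0.07), STC2 (0.4 ± 0.12, not called without the second HcRed replicate with CSC) and ATF4 itself (0.3 ± 0.07). Of 28 genes of cholesterol and fatty acid synthesis 9 rose and 7 fell, with IDI1 and MSMO1 higher (0.41 ± 0.05 and 0.39 ± 0.05) and FADS2 lower (-0.53 ± 0.06). Of 20 NRF2 targets 4 rose and 3 fell, beside 10.9% and 11% of all genes. Ferritin chains FTL (0.75 ± 0.05) and FTH1 (0.53 ± 0.04) were higher, and GCLC, of glutathione synthesis, was lower (-0.45 ± 0.07). Ferritin genes have many processed copies, so their counts are uncertain.

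The aryl hydrocarbon receptor (AhR) is a transcription factor that binds polycyclic aromatic hydrocarbons such as BaP and turns on the enzymes that oxidize them. Of its 6 listed targets CYP1A1, CYP1B1, ALDH3A1 and AHRR were lower in PIK3CA over the 3 chemicals, TIPARP (-0.01 ± 0.06) and NQO1 (0.07 ± 0.06) did not pass the test, and the median was -0.978. By chemical the median was -1.22 with CSC, -1.24 with BaP and 0.187 with NNK, where TIPARP was called higher (0.42 ± 0.12, adjusted p = 0.0188). None of the 6 passed the limma test of a difference between the 3 chemicals. In HcRed, CYP1A1 measured 438, 357 and 220 CPM with CSC and 238, 258 and 327 CPM with BaP. In PIK3CA it measured 121, 134 and 146 CPM and 103, 135 and 148 CPM. With NNK both lines were low, at 38.3, 33.1 and 45.8 CPM in HcRed and 32.8, 42.7 and 52.8 CPM in PIK3CA. The lines were thus apart with CSC and BaP and overlapped with NNK. The effect was -1.31 ± 0.13 with CSC, -1.05 ± 0.15 with BaP and 0.08 ± 0.29 with NNK. The NNK effect of CYP1A1 minus the mean of the other 2 was 1.26 ± 0.31. This contrast was added after the values were seen. It missed the threshold in limma (adjusted p = 0.0759), passed it in edgeR (adjusted p = 0.000312), and ranged from an adjusted p of 0.00226 to 0.345 when each replicate was left out. With DMSO, CYP1A1 had 2, 0 and 0 reads in HcRed and 6, 8 and 6 reads in PIK3CA.

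CYP1B1, which oxidizes the same hydrocarbons, was lower in PIK3CA with every chemical. In HcRed it measured 949, 959 and 873 CPM with CSC, 1010, 910 and 848 CPM with BaP and 290, 270 and 343 CPM with NNK. In PIK3CA the values were 268, 289 and 345 CPM, 312, 342 and 363 CPM, and 169, 138 and 121 CPM. No PIK3CA sample reached an HcRed sample of the same chemical. The effect was -1.62 ± 0.08, -1.48 ± 0.08 and -1.02 ± 0.12, and it was -1.08 ± 0.17 with DMSO, where CYP1B1 measured 108, 102 and 112 CPM in HcRed. ALDH3A1, an aldehyde dehydrogenase, measured 84.4, 75.2 and 45.6 CPM with CSC, 58.9, 48.9 and 63.3 CPM with BaP and 29.8, 37.2 and 38.9 CPM with NNK in HcRed. In PIK3CA it did not exceed 7.57 CPM in any sample, and it differed by -3.61 ± 0.27 (adjusted p = 1.4e-18). The receptor repressor AHRR differed by -1.12 ± 0.38 with CSC, -1.43 ± 0.42 with BaP and 0.68 ± 0.58 with NNK. Its fall over the chemicals (-0.89 ± 0.26) was not called when all 95 samples were fitted (adjusted p = 0.116) or without the first PIK3CA replicate with BaP (adjusted p = 0.0552).

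**Figure D4:**
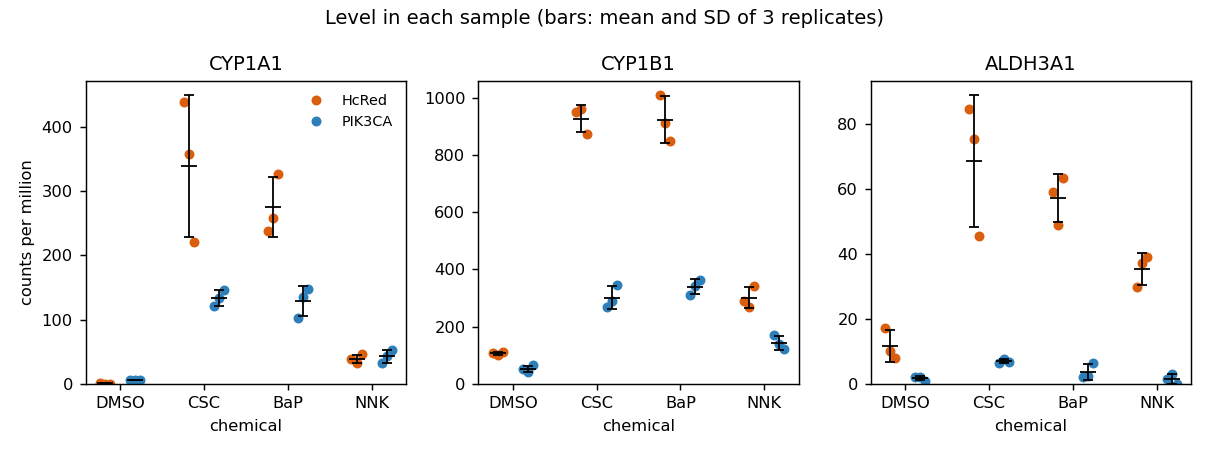
Level of CYP1A1, CYP1B1 and ALDH3A1 in CPM (y axis) with DMSO and each chemical (x axis), points for single samples and bars for the mean and SD of 3 replicates. With CSC and BaP the PIK3CA line is at 103 to 148 CPM of CYP1A1 and the HcRed line at 220 to 438 CPM, and with NNK the lines overlap.

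Of the 6 AhR targets 4 had a promoter sequence in the RefSeq table. CYP1B1 and ALDH3A1, which were lower with every chemical, had none. Of the 4, 3 hold GCGTG or its reverse complement CACGC, the core bound by the receptor, within 250 bases before the start. Of all promoters 31.9% do. The genes were listed as targets of the receptor, so this share says nothing of PIK3CA, and TIPARP, 1 of the 3, did not fall. A match of these letters is not a bound site, and a link to the changes was not tested. The match nearest to the start is in capitals (GRCh38.p14, strand of the gene), for the 3 genes CYP1A1, AHRR and TIPARP.
CYP1A1 (chr15:74725563-74725603, minus strand): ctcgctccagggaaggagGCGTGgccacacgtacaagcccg
AHRR (chr5:321666-321706): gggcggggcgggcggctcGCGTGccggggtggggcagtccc
TIPARP (chr3:156674430-156674470): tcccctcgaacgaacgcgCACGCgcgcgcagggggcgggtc

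Few genes were called for an effect that depended on the chemical. A moderated F test found 25 genes (0.174%) in which the effect differed between CSC, BaP and NNK, while the F statistic built into limma gave 35 or 41 by the coding of the contrasts. LAMB3, the β3 chain of laminin 332 that anchors basal cells, measured 245, 266 and 255 CPM in PIK3CA with NNK against 575, 495 and 572 CPM in HcRed. With CSC it measured 478, 435 and 358 CPM against 532, 469 and 545 CPM. The lines overlapped with CSC and were far apart with NNK, with effects of -0.32 ± 0.08 with CSC, -0.46 ± 0.1 with BaP and -1.08 ± 0.1 with NNK (F test, adjusted p = 0.000644). LAMA3, the α3 chain of the same laminin, rose with CSC (0.24 ± 0.06), fell with NNK (-0.29 ± 0.08) and was not called with BaP (-0.08 ± 0.08). KRT14 fell by 0.5 with CSC (SE 0.09), 0.96 with BaP (SE 0.1) and 1.21 with NNK (SE 0.09), and KRT6A by 0.51, 0.8 and 0.88. FN1 rose by 1.44 ± 0.06 with CSC, 1.12 ± 0.07 with BaP and 1.01 ± 0.07 with NNK. PLEC, the cytolinker plectin, rose with CSC (0.35 ± 0.04) and BaP (0.37 ± 0.04), while with NNK the difference was 0.01 ± 0.04.

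Effects of a single chemical, called with it alone and different from the mean of the other effects, were found in 6 genes. For CSC there were 0 such genes by limma, edgeR and DESeq2. At an unadjusted p under 0.05 in limma, the CSC effect of 704 of 14372 genes differed from the mean of the others. This number is no larger than that threshold would pass if no gene differed. For BaP it was 1117 genes and for NNK 1016, and the F test gave 1032. Each of these 3 numbers is larger than the threshold would pass if no gene differed. Without the test of the difference 543 genes (3.78%) were called with CSC alone, 326 (2.27%) with BaP alone and 360 (2.5%) with NNK alone. Those lower with BaP alone were 150 genes, 1.04% of all tested, and those higher with NNK alone were 170 genes, 1.18% of all tested. NNK had 4 genes (0.0278%), 1 higher (0.00696%) and 3 lower (0.0209%). By the difference alone 4 genes passed for CSC (0.0278%), and 13 each for BaP (0.0905%, with 0.0626% lower) and NNK (0.0905%, with 0.0487% higher and 0.0417% lower). TOP2A, a topoisomerase of dividing cells, measured 1275, 1105 and 1069 CPM in PIK3CA with NNK against 911, 989 and 840 CPM in HcRed, and its effect was 0.33 ± 0.07 with NNK, -0.13 ± 0.06 with CSC and -0.17 ± 0.06 with BaP. The tetraspanin TSPAN7 measured 32.8, 29.1 and 43.4 CPM with NNK against 85.2, 49.6 and 59.5 CPM (-0.96 ± 0.22), and TECPR1, of autophagosome maturation, 14.1, 15.5 and 15.1 CPM against 39.7, 34.4 and 45.8 CPM (-1.37 ± 0.28). FASN, fatty acid synthase, measured 1448, 1876 and 2008 CPM against 2386, 2076 and 2158 CPM (-0.35 ± 0.07). In these 4 genes the lines did not overlap with NNK, but the genes were picked for a difference with NNK, so this adds no support. None of the 6 was called by DESeq2. The difference of TSPAN7 was lost without any of 6 samples and that of TECPR1 without any of 8. The NNK effect of FASN minus the mean of the others was -0.09 ± 0.06 after correction for GC content and length, and it was no longer called, nor was it by edgeR or without any of 6 samples. BaP had 2 genes (0.0139%), the snoRNA SNORD26 (-1.77 ± 0.29) and RNR2, a symbol whose RNA type the files do not give (-0.19 ± 0.05). RNR2 measured 4535, 4611 and 5003 CPM with BaP against 5127, 5972 and 4598 CPM, so the lines overlapped, and without the second HcRed replicate its difference was -0.16 (adjusted p = 0.709). The difference of RNR2 was also not called by edgeR (adjusted p = 0.418) or in the limma fit of all 95 samples (adjusted p = 0.324). It was lost without any of 5 samples, that replicate among them. SNORD26 measured 12, 33.5 and 33.7 CPM against 73.8, 74.7 and 106 CPM, and without the first PIK3CA replicate its BaP effect minus the mean of the others was -1.09 (adjusted p = 0.368).

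**Figure D5:**
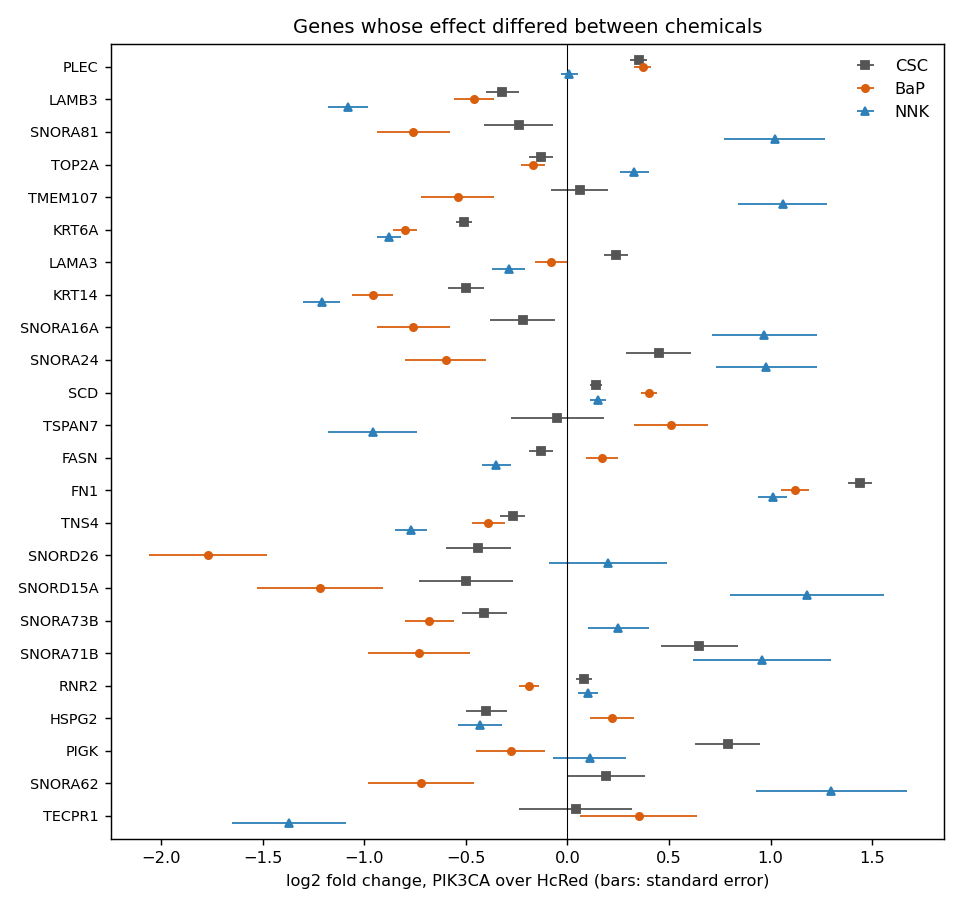
Log2 fold change of PIK3CA over HcRed with its standard error (x axis) for CSC (squares), BaP (circles) and NNK (triangles) in 24 of the 25 genes (rows, by F test) whose effect differed between chemicals. In the 8 snoRNA genes and TMEM107 the estimate is below 0 with BaP and above 0 with NNK, from -1.77 for SNORD26 with BaP to 1.3 for SNORA62 with NNK, though not each of these effects was called.

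Small RNAs stood out among the 25, with 8 snoRNA genes out of 228 tested (3.51%). The share of reads in snoRNA genes was 0.33% to 0.387% in HcRed with BaP and 0.21% to 0.241% in PIK3CA with BaP, while with NNK it was 0.185% to 0.226% in HcRed and 0.207% to 0.304% in PIK3CA. The median effect over all 228 was 0 with CSC, -0.61 with BaP and 0.25 with NNK. SNORA81 differed by -0.76 ± 0.18 with BaP and 1.02 ± 0.25 with NNK. TMEM107 (chr17:8075775-8079717, hg19, minus strand) holds within an exon the snoRNA SNORD118, on the same strand at chr17:8076772-8076905, and it differed by -0.54 ± 0.18 with BaP and 1.06 ± 0.22 with NNK. Reads of a host gene and of the small RNA within it cannot be told apart in these counts.

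The difference between the lines was present without a carcinogen too. With DMSO 1096 genes were called (7.62% of 14391, with 4.24% higher and 3.38% lower), and of the 368 common genes 179 of 193 higher and 150 of 175 lower were called in the same direction, with none in the opposite direction. The mean effect over the 3 chemicals differed from the effect with DMSO in 0 genes by limma, edgeR and DESeq2. At an unadjusted p under 0.05 limma gave 650 of 14391 genes, no more than that threshold would pass if no gene differed. For KRT7 the effect was 2.3 ± 0.09 with DMSO, for VIM 1.61 ± 0.16 and for S100A8 -2.17 ± 0.44.

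The same genes varied between the other lines of the series under the 3 chemicals (CPM scaled over all 95 samples, as a description). PIK3CA was at 458 to 535 CPM in its own line, 140 to 193 CPM in the CDKN2A knockout line and 45.5 to 101 CPM in the remaining lines. INHBA was at 19.2 to 45.9 CPM in the PIK3CA line and at most 16.4 CPM elsewhere, the latter in FGFR1. SPRR1B was highest in HcRed, at a median of 16.7 CPM, with medians of 8.57 CPM in NRF2, 5.09 CPM in GFP, 1.89 CPM in NRG1, 0.839 CPM in CDKN2A and 0 in FAT1, FGFR1 and PIK3CA. S100A8 too had a median of 0 in GFP, the control of the knockouts, against 24.8 CPM in HcRed and 1.92 CPM in PIK3CA. For these 2 squamous genes, then, HcRed and NRF2 were the high lines. KRT7 had medians of 2.86 CPM in GFP, 202 CPM in HcRed, 529 CPM in FGFR1, 557 CPM in NRF2 and 1050 CPM in PIK3CA, and SPARC medians of 0.664, 47.3, 136, 125 and 213 CPM in the same order. KRT19, at 188 to 298 CPM in PIK3CA, was below every sample of the other lines, the lowest of which had 355 CPM. ALDH3A1 was at 0 to 7.66 CPM in PIK3CA and at 6.15 CPM or more in all other lines. TERT, the gene commonly used to immortalize such lines, was among the genes called with all chemicals (1.69 ± 0.05) and had medians of 1520 CPM in PIK3CA, 845 CPM in NRF2, 488 CPM in HcRed and 27.2 CPM in GFP. The part of these differences between lines in the results was not tested.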

How the data were processed

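AALE cells were profiled by SFL, with 96 libraries pooled and sequenced as single 75-base reads. Per the labels and the study's methods, the authors trimmed reads with cutadapt 1.12, checked them with FastQC 0.11.5, aligned them to hg19 with STAR 2.5.2b and assigned them to RefSeq genes by featureCounts. The deposited values are raw counts for each of 27978 symbols, without normalization, and the strand setting of the counting is not given in the sources used here. The 18 samples were grouped by their labels. Counts were scaled by TMM (edgeR 4.0.16, R 4.3.3) and fitted with limma 3.58.1 on voom-transformed counts, with a mean count above 1 and a Benjamini-Hochberg threshold of 0.05. The test over 3 chemicals was additive in chemical and genotypic perturbation. Contrasts of single chemicals came from a model of 6 group means, and the comparison with DMSO from 8 group means over 24 samples. The F test used each gene's own weighted covariance. This form was chosen after 35 and 41 genes had been seen with the F built into limma, whose result depends on how contrasts are coded. The alternatives comprised the quasi-likelihood test of edgeR, DESeq2 1.42.0 and its size factors, other filters, the replicate number as a block, all 95 samples, separate fits of each chemical and leaving out each replicate.

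The members and gene lists were chosen with earlier results of these data known. The genes named are the 3 markers, the 12 largest rises and falls as described, up to 5 genes of 1 chemical only and up to 4 called members of each list with a mean count of at least 10. KRT8, KRT18, KRT6A, LAMA3, PLEC, TMEM107, SNORA81, TIPARP, NQO1, TERT, the further cornified envelope genes and the genes compared across all lines were picked after their values were seen. A few genes that the rule or the F test would name are not reported here. Gene positions come from GENCODE on GRCh37, where 25103 symbols were matched, and promoters from RefSeq on GRCh38.p14. The tests were tested on simulated data. Replicates of a group differed by more than sampling noise (chi-square over degrees of freedom 1.18 to 2.34 in 24 pairs).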

Additional observations from a re-analysis of the deposited data

Results flagged for a closer look

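In 25 genes the effect of PIK3CA differed between CSC, BaP and NNK by the F test. For the genes named by the rule, each chemical's effect was also compared with the mean of the other effects by limma (adjusted p under 0.05). PLEC, KRT6A, LAMA3, SNORA81 and TMEM107, picked after their values were seen, also passed the F test and are not listed here. With NNK this difference was 0.49 ± 0.08 for TOP2A, -1.2 ± 0.26 for TSPAN7, -1.56 ± 0.35 for TECPR1, -0.37 ± 0.08 for FASN and -0.69 ± 0.12 for LAMB3. With BaP it was -1.65 ± 0.33 for SNORD26 and -0.28 ± 0.06 for RNR2. With CSC it was 0.37 ± 0.08 for FN1 and 0.58 ± 0.11 for KRT14.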

How the results depend on the processing

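PIK3CA was called in every setting that was fitted over the 3 chemicals, between 2.56 and 2.67 without single replicates. DESeq2 called fewer genes, 631 with CSC, 497 with BaP, 583 with NNK, 229 in all 3 chemicals (all among the 368), 6 with an effect that differs between chemicals and 0 for BaP only and for NNK only. Without a filter on low counts 16 genes differed between chemicals, with 1 gene of CSC only, 0 of BaP only and 2 of NNK only. With a mean count of at least 10, 1 gene differed between carcinogens and DMSO. The fit of all 95 samples gave 9 genes that differ between chemicals, 0 of BaP only and 2 of NNK only. The F built into limma gave 35 or 41 genes, depending on the coding, and held all 25. Settings added after seeing the data were a GC content and length correction (1 gene of CSC only, 0 of BaP only), the same genes without it (96.5% of those tested, 0 of BaP only) and leaving out the 3 samples under 600000 reads (40 genes that differ between chemicals, 6 of BaP only, 7 of NNK only). The numbers of the replicates did not pair the samples, with correlations of deviations between -0.0518 and 0.0145, and the replicate block gave 7 genes of NNK only. Leaving out each replicate in turn gave 2828 to 3128 genes over the chemicals, 839 to 1410 with CSC (839 without the first HcRed and 841 without the first PIK3CA replicate), 563 to 1012 with BaP (563 and 602 without the first and second PIK3CA, 603 without the first HcRed replicate), 535 to 1021 with NNK (without the first HcRed replicate), 259 to 349 in all 3, 13 to 33 that differ between chemicals (without the first HcRed replicate with NNK), 0 to 1 of CSC only, 0 to 8 of BaP only, 1 to 13 of NNK only and 0 to 0 for the difference from DMSO. The cause of these changes was not tested beyond what a setting itself removes. Of 103 results for named genes 87 kept their direction and call in every setting checked, and the others changed their call but not their direction. The separate fits of each chemical were not checked for named genes, and the GC settings covered 100 of the 103 results. The median standard error was 0.224 to 0.273 with 1 chemical and 0.143 over 3, which also differ in the number of samples. A count of 0 allows up to 3 reads, 1.81 to 6.94 CPM by sample.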

Other observations

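Interferon-stimulated genes and p53 targets were described by count as well. Of 20 tested interferon-stimulated genes 8 rose and 1 fell in PIK3CA, with a median log2 fold change of 0.325, and none was called with all 3 chemicals. Over all genes 10.9% rose and 11% fell. In 2 of the 20 the mean count was above 1 in one line only, and among the other 18, 8 rose and 1 fell. HERC5, a ligase for ISG15, rose by 1.07 ± 0.2, ISG15 itself by 0.93 ± 0.26 and IFIT3 by 0.65 ± 0.17, while the transcription factor IRF7 fell by 0.55 (SE 0.18), a call lost without the third PIK3CA replicate with CSC (adjusted p = 0.167) or the second HcRed replicate with NNK (adjusted p = 0.0571). Levels were low: ISG15 measured 7.82 to 24.6 CPM in PIK3CA (median 13.2) and 2.97 to 16 CPM in HcRed (median 7.1), and the lines overlapped. PSMB8, PSMB9, TAP1 and CMPK2 are listed at 0 in these samples, and whether they were expressed but not counted was not tested.

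Of 24 p53 targets 5 fell and 2 rose (29.2% called, near the 22% of all genes), with a median of -0.127. BTG2, an antiproliferative gene, fell by 0.92 (SE 0.21) and DDB2, of DNA repair, by 0.42 (SE 0.15, lost without any of 4 samples), while the kinase PLK3 rose by 0.65 ± 0.18. None of the 24 was called with every chemical, and no tested member of either list had an effect that differed between chemicals.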
